A study of Mus musculus with 10 samples.

Results

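Genes of microglia, complement and the interferon response were followed in the brains of Cin85-/- mice. The set holds 45 genes listed by symbol: 24 counted as microglial markers and 21 interferon and antigen presentation genes. The 24 include the 3 chains of complement C1q and also Cd74, the invariant chain of MHC class II. A gene was taken when a probe of the array carried exactly its symbol and no other. This found 29 of the 45 genes on 38 probes, out of 9930 genes named on the array. They are 15 microglial genes and 14 interferon and antigen presentation genes. The other 16 names had no such probe. They include the receptors Csf1r, Cx3cr1 and P2ry12, the integrin Itgam and Tmem119 among the microglial markers, and Mx1, Isg15, Ifit1, Gbp2, Ifnar1, H2-D1 and Tap2 among the interferon genes.

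The samples were brains of 5 male Cin85-/- mice, 15 weeks old, and the reference was a single pool of brain RNA from male wildtype mice of the same age. The gene that encodes Cin85, Sh3kbp1, makes an adaptor protein used in the internalisation of cell surface receptors. Each mouse was hybridised to 2 two-colour arrays against the pool, with its RNA labelled with Cy5 on one and with Cy3 on the other, so that 10 arrays stand for 5 animals. The pool held RNA of 5 mice by the series design and of 6 animals by the labelling protocol. The mutant allele is not described in the labels, which also give the mutant samples the unexplained abbreviation Kdn as a source; that they are brain comes from their titles and the series design. Because the pool is the only control, the tests leave out the spread between wildtype mice.

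Microglia are the resident macrophages of the brain. They take up debris and synapses through surface receptors and digest them in lysosomes, and they are a main source of C1q, the protein that starts the classical complement pathway and tags material for removal. Interferons act through surface receptors, Jak kinases and Stat and Irf transcription factors, which switch on antiviral effectors and the peptide loading and display of MHC class I. In healthy brain this response is low, and microglia are among the cells that mount it. In whole tissue RNA, fewer cells of a type and less RNA per cell cannot be told apart.

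The values are the log ratios of the 2 channels that the authors deposited. They were read as log2 from their spread around 0, since the labels do not give the base, and each fold rests on that reading. The sources used here do not state the numerator, nor whether arrays with the mutant in Cy3 were turned to run like the others. Signs below are therefore signs on the deposited scale and do not say whether the mutant or the pool was higher. The mean of the 2 arrays of a mouse is called the pair mean. It is the difference from the pool if all arrays set mutant and pool in the same order. If all run Cy5 over Cy3 instead, the pair mean measures dye bias. The value with the mutant in Cy5 minus that with the mutant in Cy3, divided by 2, is called the dye term. It gives the contrast with the pool if the deposited arrays all run Cy5 over Cy3. Otherwise it measures dye bias. The pair means are given first, gene by gene, and the dye terms of the members and of each list after them.

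The arrays carried 20355 probes, of which between 16816 and 19424 had a value. The array of mouse 3 with the mutant in Cy3 stood apart. It had the fewest values, and its interquartile range was 1.43, against 0.453 to 0.994 on the other 9 arrays. Over all probes, with the extreme values described next left out, Spearman's rho between arrays of the same dye orientation had a median of 0.379 for mutant RNA in Cy5 and 0.247 for mutant RNA in Cy3. Between the 2 arrays of a mouse the median was -0.326, and it was -0.294 between swapped arrays of different mice. Genes are not independent replicates in these values, and all arrays share the pool. Each array also repeated a single extreme ratio at 65 to 264 probes, positive on the 5 arrays with the mutant in Cy5 and negative on the other 5. Sh3kbp1 itself gave a pair mean of 0.0082 ± 0.14 (SD, n = 5) and a dye term of 0.12 ± 0.089 (SD, n = 5) on the probe that could be tested. Where on the transcript that probe lies is unknown here, so it does not check the genotype. Array ratios carry no expression level, so the brain's microglial content could not be checked from defining markers.

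Promoters of the members are shown first, because the gene groups are known for different regulators: Stat and Irf factors act on interferon genes, and PU.1 is a transcription factor that microglia need. RefSeq promoters of build GRCm38.p6, from 250 bases before to 50 after the annotated start, were matched for 25 of the 29 genes. C1qa, Cd74, Mx2 and Tyrobp had no entry. The motifs searched, on both strands, were the core of the interferon-stimulated response element (GAAA, any 2 bases, then GAAA), the gamma-activated site, TTCNNNGAA, and the core of the PU.1 site, GAGGAAGT. The first motif lay in the promoter of 5 of 13 interferon and antigen presentation genes (B2m, Bst2, Ifit3, Ifitm3 and Stat2), or 38.5%, and of 2 of 12 microglial genes (Aif1 and Ctss), or 16.7%. Among 27025 genes with a promoter the share was 3.99%. The gamma-activated site was found for 4 interferon genes (Bst2, Ifitm3, Ifnar2 and Irf1), or 30.8%, and for 0 microglial genes, against 9.55% of all genes. The PU.1 core was found for 2 microglial genes (C1qc and Ctss), or 16.7%, and for 0 interferon genes, against 3.69%. Some genes have more than 1 promoter entry, and a gene was counted once. A match describes the letters of the window and is not a measured binding site.

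A promoter pair of each group is printed 5′ to 3′ on the strand of the gene, chosen among genes whose values are given below, with every motif match in capitals. The Ctss promoter (chr3:95526536-95526835, plus strand) holds an interferon-stimulated core at position -21 and, at position -2, a PU.1 core on the other strand, where 0 is the first transcribed base. That of C1qc (chr4:136892865-136893164, minus strand) holds a PU.1 core on the other strand at -195. That of Ifitm3 (chr7:141010695-141010994, minus strand) holds interferon-stimulated cores at 2 and 19, and a gamma-activated site at 13 whose end overlaps the latter. That of Stat2 (chr10:128270248-128270547, plus strand) holds an interferon-stimulated core on the other strand at -222.
Ctss: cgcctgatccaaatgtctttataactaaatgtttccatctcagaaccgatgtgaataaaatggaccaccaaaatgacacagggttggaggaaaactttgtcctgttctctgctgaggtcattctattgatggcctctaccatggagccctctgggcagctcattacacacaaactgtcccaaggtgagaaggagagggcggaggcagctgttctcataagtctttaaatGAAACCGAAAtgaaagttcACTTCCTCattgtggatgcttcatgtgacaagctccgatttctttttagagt
C1qc: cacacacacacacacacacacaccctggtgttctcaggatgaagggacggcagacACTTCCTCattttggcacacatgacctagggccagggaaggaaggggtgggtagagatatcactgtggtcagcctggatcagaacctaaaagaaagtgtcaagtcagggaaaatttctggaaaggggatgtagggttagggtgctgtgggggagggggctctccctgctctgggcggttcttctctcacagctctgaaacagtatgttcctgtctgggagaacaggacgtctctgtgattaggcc
Ifitm3: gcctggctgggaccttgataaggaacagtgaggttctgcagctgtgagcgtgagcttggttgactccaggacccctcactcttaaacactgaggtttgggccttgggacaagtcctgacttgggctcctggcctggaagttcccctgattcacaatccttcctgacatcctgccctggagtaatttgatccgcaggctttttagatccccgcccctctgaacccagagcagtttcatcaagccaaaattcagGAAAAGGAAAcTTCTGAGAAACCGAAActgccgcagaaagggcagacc
Stat2: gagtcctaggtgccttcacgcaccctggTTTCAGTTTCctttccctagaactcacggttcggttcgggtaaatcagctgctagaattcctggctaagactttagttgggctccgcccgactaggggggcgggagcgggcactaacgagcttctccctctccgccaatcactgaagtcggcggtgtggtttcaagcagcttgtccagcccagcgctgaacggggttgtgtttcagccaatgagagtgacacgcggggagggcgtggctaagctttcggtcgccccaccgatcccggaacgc

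Of the 29 genes, 28 had a probe with values on both arrays of at least 4 mice and were tested, 14 in each group. None of the 28 differed from the pool at an adjusted p under 0.05 (limma, Benjamini-Hochberg over 8711 genes), a threshold that 0% of all genes passed. The adjusted p of the members ranged from 0.918 to 0.989. At an unadjusted p under 0.05 there was 1 member, Mx2, or 3.57% of those tested, against 3.52% of all genes. All 5 mice shared a sign of the pair mean for 4 of the 23 members measured in each, or 17.4%, against 6.86% of all genes. They were C1qa and Ctss, negative, and Mx2 and Ifitm3, positive. The mean was positive for 11 members and negative for 17 (39.3% positive, against 49.4% of all genes). The 95% interval of the mean lay within 1.5-fold in either direction for 17 of 28 members, or 60.7%, against 65.6% of all genes. It did so for 11 of 14 microglial genes and for 6 of 14 interferon genes.

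**Figure D1:**
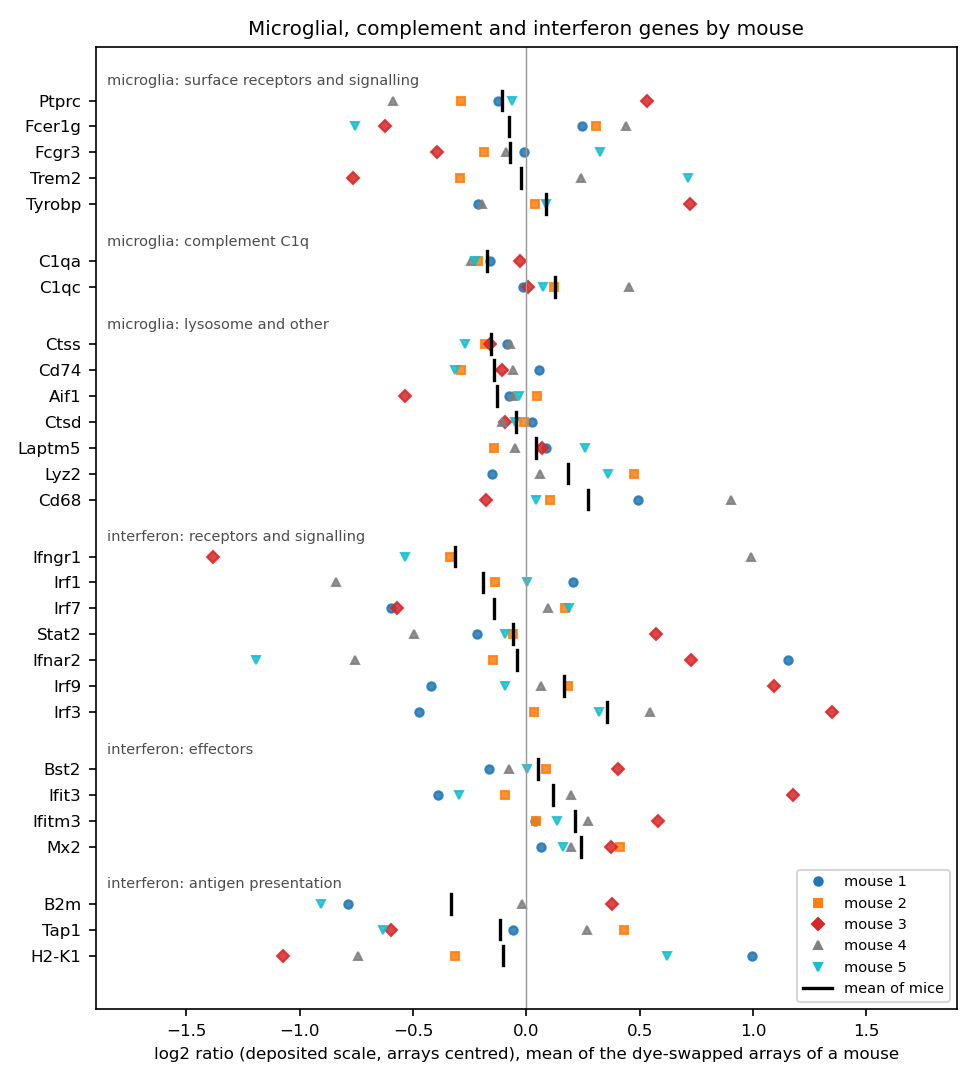
Pair mean of each mouse (symbols) and the mean over mice (black bar) for the 28 tested members, in log2 units on the deposited scale, ordered by role. C1qa and Ctss lie left of 0 in all 5 mice, Mx2 and Ifitm3 right of 0, while Ifngr1, Ifnar2 and H2-K1 spread over more than 2 log2 units.

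Among surface receptors and their signalling partners, no member kept its sign over the 5 mice. Tyrobp encodes the adaptor DAP12, through which Trem2 and other receptors signal. It gave -0.21, 0.038, 0.72, -0.20 and 0.085 in mice 1 to 5, with a mean of 0.088 ± 0.38 (SD, n = 5). Mouse 3 was the high value, and without it the mean was -0.072. Trem2, the lipid-sensing receptor on the same pathway, had no pair in mouse 1 and gave -0.29, -0.76, 0.24 and 0.71 in mice 2 to 5, with a mean of -0.025 ± 0.64 (SD, n = 4). The values of receptor and adaptor were thus opposite in sign in mice 2, 3 and 4.

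Fcer1g encodes the common gamma chain of Fc receptors. Its pair means were 0.24, 0.31, -0.62, 0.44 and -0.76, with a mean of -0.078 ± 0.57 (SD, n = 5). Mice 3 and 5 were low and the others high. Fcgr3, an activating Fc receptor for IgG that needs this chain, gave -0.011, -0.19, -0.40, -0.091 and 0.33, with a mean of -0.072 ± 0.27 (SD, n = 5). Its tested probes disagreed in mouse 3, where probe 8389 read -1.11 and probe 14041 read 0.32. Ptprc, the pan-leukocyte phosphatase CD45, gave -0.13, -0.29, 0.53, -0.59 and -0.062, with a mean of -0.11 ± 0.41 (SD, n = 5). Probe 5629 of Ptprc spread over mice with an SD of 1.03 and probe 11427 with one of 0.39.

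The C1q chains gave values of both signs. C1qa read -0.16, -0.21, -0.028, -0.25 and -0.23 in mice 1 to 5, a mean of -0.17 ± 0.088 (SD, n = 5), or 1.13-fold in size. All 5 values were negative, and the 95% interval ran from -0.38 to 0.028 (limma, adjusted p 0.918). C1qc read -0.014, 0.12, 0.0055, 0.45 and 0.072, a mean of 0.13 ± 0.19 (SD, n = 5). Mouse 4 held the high value, and without it the mean was 0.046. On the pair mean C1qc lay above C1qa in each mouse. On the dye term it did so in mice 1 to 4, while mouse 5 had 0.13 for C1qa and -0.13 for C1qc. C1qb had values on 7 of 10 arrays and on both arrays of mice 2 and 3 alone, so it was not tested. With the mutant in Cy5 it read -1.45, 1.31, 0.38, the extreme ratio of 16.9 and 2.64, and with the mutant in Cy3 -1.12 in mouse 2 and -0.28 in mouse 3. The chains are made together into 1 protein. C1qa and C1qc differed in the sign of the mean on the pair mean and shared a negative sign on the dye term, at -0.38 and -0.090.

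Lysosomal genes included the tightest pair means of the set. Ctss, the cysteine protease cathepsin S, gave -0.086, -0.18, -0.16, -0.073 and -0.27, a mean of -0.15 ± 0.079 (SD, n = 5), or 1.11-fold. Every mouse was negative, and the 95% interval was -0.35 to 0.045. Ctsd, the aspartic protease cathepsin D, gave 0.024, -0.011, -0.095, -0.11 and -0.051 over 2 probes, a mean of -0.048 ± 0.055 (SD, n = 5). Its probes had means of -0.12 and 0.020. The SD of the pair mean stood at percentile 2.98 of all genes tested for C1qa, 2.02 for Ctss and 0.517 for Ctsd. The Ctsd value averages 2 probes, which alone stood at percentiles 7.16 and 1.24 of all probes tested. The part of the averaging in its rank among genes was not tested. The dye term was not as tight, with SDs of 0.35 for C1qa (percentile 54.2), 0.14 for Ctss (8.93) and 0.16 for Ctsd (13.98).

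Cd68, a glycoprotein of macrophage lysosomes, varied more. Its pair means were 0.49, 0.10, -0.18, 0.91 and 0.044, with a mean of 0.27 ± 0.43 (SD, n = 5). Mice 1 and 4 were high, and without mouse 4 the mean fell to 0.12. Lyz2, lysozyme M, had no pair in mouse 3 on its tested probe and gave -0.15, 0.48, 0.058 and 0.36 in mice 1, 2, 4 and 5, with a mean of 0.19 ± 0.29 (SD, n = 4). It was 0.089 without mouse 2 and 0.30 without mouse 1. Laptm5, a lysosomal membrane protein of blood-derived cells, had a mean of 0.043 ± 0.15 (SD, n = 5). Aif1, the calcium-binding protein Iba1 by which microglia are usually stained, had -0.13 ± 0.23 (SD, n = 5). Mouse 3 supplied most of it with -0.54, and without that mouse the mean was -0.030.

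Cd74, the invariant chain of MHC class II, was read by 3 tested probes. Averaged over them it gave 0.054, -0.29, -0.11, -0.059 and -0.31, with a mean of -0.14 ± 0.16 (SD, n = 5). The probes themselves had means of -0.29 ± 0.63 (SD, n = 5), -0.22 ± 0.34 (SD, n = 5) and 0.19 ± 0.69 (SD, n = 4). In mouse 3 they read -0.72, -0.80 and 1.19, so probes of 1 gene differed there by more than its mean over mice.

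The interferon receptors measured, Ifngr1 and Ifnar2, had the highest SDs of the 28 genes. Ifngr1, the ligand-binding chain of the interferon gamma receptor, gave -0.34, -1.38, 0.99 and -0.54 in mice 2 to 5, with a mean of -0.32 ± 0.98 (SD, n = 4). Ifnar2, a chain of the type I interferon receptor, gave 1.15, -0.15, 0.72, -0.76 and -1.19, with a mean of -0.044 ± 0.98 (SD, n = 5). Its other 2 probes had values on 5 and 6 arrays and were not tested. For both receptors the mice lay far to either side of 0, and the 95% intervals reached from -1.29 to 0.66 for Ifngr1 and from -0.92 to 0.83 for Ifnar2.

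Stat2 and Irf9 form the complex that carries the type I interferon signal to the nucleus. Stat2 gave -0.22, -0.060, 0.57, -0.50 and -0.097, with a mean of -0.060 ± 0.39 (SD, n = 5). Irf9 gave -0.42, 0.19, 1.09, 0.064 and -0.095, with a mean of 0.17 ± 0.57 (SD, n = 5). Both were highest in mouse 3, and without it the means were -0.22 for Stat2 and -0.067 for Irf9. Irf3, the factor that induces interferon beta, gave -0.48, 0.033, 1.35, 0.54 and 0.32, with a mean of 0.35 ± 0.67 (SD, n = 5), again highest in mouse 3 and 0.10 without it. Irf7, which amplifies type I interferon, went the other way in that mouse, with -0.60, 0.17, -0.57, 0.095 and 0.19 and a mean of -0.14 ± 0.41 (SD, n = 5). That mean was -0.029 without mouse 1, -0.036 without mouse 3 and -0.23 without mouse 5. Irf1, a target of interferon gamma, gave 0.21, -0.14, -0.84 and 0.0035 in mice 1, 2, 4 and 5, with a mean of -0.19 ± 0.45 (SD, n = 4). It was 0.024 without mouse 4.

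All 4 measured effectors had a positive mean, and none passed the test. Mx2, a dynamin-like antiviral GTPase, gave 0.066, 0.41, 0.38, 0.20 and 0.16, with a mean of 0.24 ± 0.15 (SD, n = 5), or 1.18-fold. It was positive in all 5 mice and on 9 of 10 arrays, and leaving out each mouse in turn gave means from 0.20 to 0.29. Its 95% interval was 0.015 to 0.47 and its adjusted p, from limma, 0.918. Ifitm3, a membrane protein that blocks virus entry, gave 0.038, 0.042, 0.58, 0.27 and 0.13, with a mean of 0.21 ± 0.23 (SD, n = 5) and 0.12 without mouse 3. Ifit3, which binds foreign RNA with its relatives, gave -0.39, -0.094, 1.18, 0.20 and -0.30, with a mean of 0.12 ± 0.63 (SD, n = 5). Bst2, or tetherin, which holds budding viruses at the membrane, gave -0.16, 0.086, 0.40, -0.077 and 0.0035, with a mean of 0.051 ± 0.22 (SD, n = 5). Without mouse 3 the means were -0.15 for Ifit3 and -0.038 for Bst2, so the shared positive sign of the effectors held with that mouse and not without it. On the other reading of the dye swap Bst2 was also negative, at -0.075. Mx2, Ifit3 and Ifitm3 each have close paralogs, and a probe may read more than 1 gene.

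The 3 antigen presentation genes had negative means with wide errors. B2m, the light chain of MHC class I, gave -0.79, 0.38, -0.021 and -0.91 in mice 1, 3, 4 and 5, with a mean of -0.33 ± 0.62 (SD, n = 4). It was -0.57 without mouse 3, -0.18 without mouse 1 and -0.14 without mouse 5. H2-K1, a class I heavy chain, gave 0.99, -0.31, -1.08, -0.74 and 0.62, with a mean of -0.10 ± 0.88 (SD, n = 5). Tap1, a subunit of the peptide transporter, gave -0.059, 0.43, -0.60, 0.27 and -0.63, with a mean of -0.12 ± 0.49 (SD, n = 5). The light and heavy chain were opposite in sign in mice 1, 3 and 5. On the other reading of the dye swap H2-K1 was positive, at 0.34. H2-K1 belongs to a family of close paralogs, and a probe may also read its relatives.

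The microglial genes were compared with the interferon and antigen presentation genes as groups, by their counts and medians and with no test, since the members were chosen with results of these data known. Of 14 microglial genes 5 had a positive mean and 9 a negative one, with a median of -0.060. The interferon genes divided into 6 positive and 8 negative, and their median was -0.052. Leaving out each mouse in turn moved this median between -0.037 and 0.069, so its sign was not fixed. The median over all 8711 genes was -0.0026. On the dye term 6 microglial genes lay above 0 and 8 below, around a median of -0.059. The interferon genes turned to 8 above and 6 below, around 0.031. Over all genes 3872 lay above 0 and 4839 below on the dye term, around -0.051. By mouse, the microglial medians were -0.014, -0.078, -0.11, -0.059 and 0.0053, of which the farthest from 0 was that of mouse 3. The interferon medians were -0.16, 0.033, 0.40, 0.079 and -0.046. The microglial median minus the interferon median was 0.15, -0.11, -0.51, -0.14 and 0.051 in the 5 mice, a mean of -0.11 ± 0.25 (SD, n = 5). The groups did not stand in 1 order across the mice, and without mouse 3 the mean difference was -0.012. On the other reading of the dye swap the difference was -0.076 ± 0.23 (SD, n = 5).

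**Figure D2:**
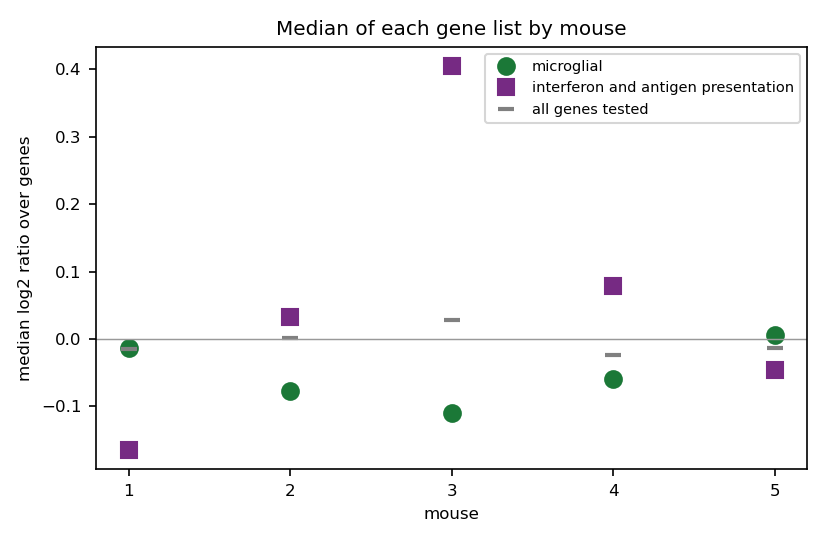
Median log2 ratio over the microglial genes (circles), the interferon and antigen presentation genes (squares) and all genes tested (bars) in each of the 5 mice. The interferon median of mouse 3, 0.40, lies far above its values in the other mice, which run from -0.16 to 0.079.

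The mouse 3 value came mainly from 1 array. With the mutant in Cy5 the interferon genes of mouse 3 had a median of 0.17, among 0.10, 0.22, 0.15 and 0.024 in the other mice. On the Cy3 array, the one that stood apart, it was 0.72, while the other mice had -0.22, -0.24, -0.0075 and -0.061. After all arrays were scaled to the same median size of ratio, that array's value was 0.41 and the pair mean of mouse 3 was 0.27. The median over all genes on that array was 0.082. The median size of the pair mean in mouse 3, sign ignored, was 0.55 over the 28 members and 0.37 over all genes, against 0.16 to 0.24 and 0.13 to 0.20 in the other mice. Mouse 3 was the mouse farthest from the mean for 11 of the 28 members. That count was not made over all genes, where mouse 3 also had the largest median size. It is therefore no result about the members. Whether the array's wide spread accounts for the interferon values of mouse 3 was not tested.

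The groups also differed in how far the mice scattered. The SD between mice had a median of 0.25 over the microglial genes, 0.53 over the interferon genes and 0.32 over all genes. It ran from 0.055 for Ctsd to 0.64 for Trem2 among the microglial genes, and from 0.15 for Mx2 to 0.98 for Ifngr1 and Ifnar2 among the interferon genes. On the dye term the median SDs were 0.24, 0.44 and 0.32 in the same order. On the pair mean the median by role was 0.41 for microglial surface receptors, 0.14 for C1q and 0.16 for lysosomal and other genes. It was 0.57 for interferon receptors and signalling, 0.22 for effectors and 0.62 for antigen presentation. In the lists of other genes described below it was 0.23 for microglial, 0.35 for interferon and 0.32 for antigen presentation genes. The 0.53 of the interferon members was thus not reached by their effectors or by those lists. Averaging the probes of a gene can narrow its SD. Of the tested genes, 4 microglial ones and 0 interferon ones average several probes. Cd74 had an SD of 0.16 on the pair mean, while its probes had 0.63, 0.34 and 0.69. The part of this averaging in the difference between the groups was not tested. Signal over background is unknown for these probes, and its part in the spread was not tested.

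**Figure D3:**
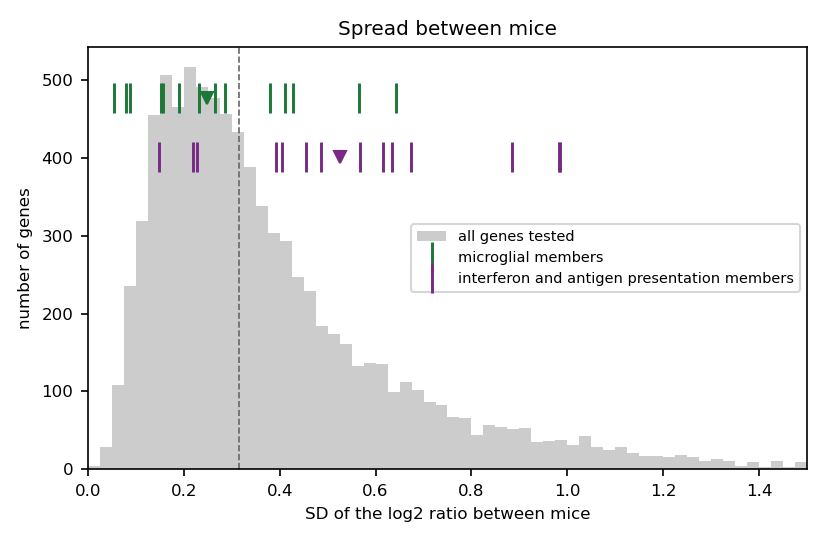
Number of genes by the SD of the log2 ratio between mice, for all genes tested (grey, dashed line at the median of 0.32), with ticks for each member and triangles at the group medians of 0.25 (microglial) and 0.53 (interferon and antigen presentation). Another 176 genes had an SD above 1.5 and are not drawn, and 0 members did. Several probes are averaged in 4 microglial and 0 interferon genes.

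The dye orientations gave another picture of the same genes. The means of the 5 arrays with the mutant in Cy5 and of the 5 with it in Cy3 had opposite signs for 19 of 28 members, or 67.9%, close to 70.2% of all genes. On the arrays with the mutant in Cy5 the median over the interferon genes was 0.18 and that over the microglial genes -0.12. On the Cy3 arrays they were 0.071 and -0.059. Taken array by array, the microglial minus interferon difference was -0.050, -0.21, -0.21, -0.31 and -0.11 on the Cy5 arrays of mice 1 to 5, negative throughout, with a mean of -0.18 ± 0.099 (SD, n = 5). On the Cy3 arrays it was 0.20, 0.15, -0.72, 0.17 and 0.22, with a mean of 0.0041 ± 0.40 (SD, n = 5). There the array that stood apart was the one negative value.

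**Figure D4:**
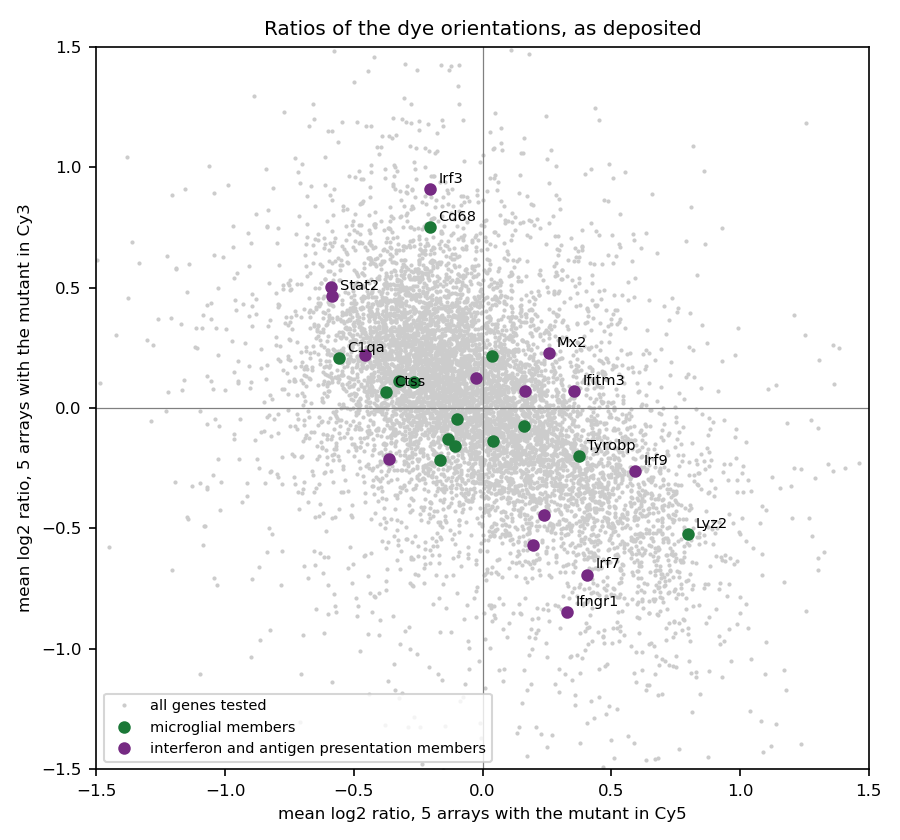
Mean log2 ratio of each gene over the arrays with the mutant in Cy5 (horizontal) and in Cy3 (vertical), for all genes tested (grey) and the members (green and purple). Most members lie in the quadrants of opposite sign, as 70.2% of all genes do, and Mx2 lies near equal values of 0.26 and 0.23; 186 genes beyond 1.5 on either axis are not drawn.

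No member had a dye term at an adjusted p under 0.05 (limma), as 0% of all genes did. At an unadjusted p under 0.05 there were 7 members, or 25%, against 26.2% of all genes, and all 5 mice shared a sign for 5 of 23, or 21.7%, against 28.3%. These shares are near the background, so they are no result about the members. The 95% interval of the dye term lay within 1.5-fold for 14 of 28 members, or 50%, against 46.9% of all genes.

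The smallest p of a dye term was that of Cd68. Its arrays read 0.046, -0.24, -0.77, 0.21 and -0.26 for mutant RNA in Cy5 and 0.96, 0.45, 0.42, 1.62 and 0.36 in Cy3. In every mouse the Cy3 array was higher, and the dye term was -0.48 ± 0.17 (SD, n = 5; limma, adjusted p 0.0977). Irf7 read -0.28, 0.75, 0.35, 0.77 and 0.45 for mutant RNA in Cy5 and -0.89, -0.41, -1.48, -0.55 and -0.057 in Cy3. Here every mouse was higher on the Cy5 array, with a dye term of 0.55 ± 0.27 (SD, n = 5) and an adjusted p of 0.101. Lyz2 on its tested probe was positive on all 5 arrays with the mutant in Cy5 and negative on all 4 with a value in Cy3, with a dye term of 0.71 ± 0.34 (SD, n = 4) and an adjusted p of 0.106. A second Lyz2 probe, with 3 pairs and so not tested, read -0.049, 1.35, 1.27 and 0.33 in Cy5 (mice 1, 2, 3 and 5) and 0.33, 0.45, -1.13 and 0.12 in Cy3 (mice 1 to 4), which did not divide by orientation.

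Stat2 was negative on all 5 arrays with the mutant in Cy5 and positive on 4 of 5 with it in Cy3, with a dye term of -0.53 ± 0.37 (SD, n = 5). C1qa followed the same pattern, with -0.39, -0.84, -0.76, -0.69 and -0.10 in Cy5 and 0.096, 0.41, 0.71, 0.23 and -0.33 in Cy3. Its arrays had opposite signs in mice 1 to 4 and were both negative in mouse 5. Its dye term was -0.38 ± 0.35 (SD, n = 5), larger in size than its pair mean. Ctss did likewise at a smaller scale, with a dye term of -0.22 ± 0.14 (SD, n = 5), negative in all 5 mice. Tyrobp was positive on all 5 Cy5 arrays and on 1 of 5 Cy3 arrays, with a dye term of 0.29 ± 0.19 (SD, n = 5), and Tap1 had -0.34 ± 0.25 (SD, n = 5). Mx2 had similar values in both orientations, with means of 0.26 and 0.23 and a dye term of 0.015 ± 0.17 (SD, n = 5). If all arrays run Cy5 over Cy3, that small dye term is its contrast with the pool, and its pair mean is dye bias.

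The dye terms of the other members were as follows, over 5 mice except where 4 are named. Among surface receptors, Trem2 had -0.14 ± 0.28 (SD, n = 4), Fcer1g -0.19 ± 0.39, Fcgr3 -0.028 ± 0.28 and Ptprc -0.22 ± 0.36. With Tyrobp positive, the adaptor stood alone in sign in its group. C1qc had -0.090 ± 0.18. Among lysosomal and other microglial genes, Aif1 had 0.025 ± 0.19, Ctsd 0.087 ± 0.16, Laptm5 0.12 ± 0.094 and Cd74 0.011 ± 0.31. Of these 4, Laptm5 was positive in all 5 mice. In the interferon pathway Ifngr1 had 0.53 ± 0.83 (SD, n = 4) and Ifnar2 -0.55 ± 0.79, so the receptors had opposite signs. Irf1 had 0.38 ± 0.43 (SD, n = 4), Irf3 -0.56 ± 0.83 and Irf9 0.43 ± 0.45. The effectors Ifit3, Ifitm3 and Bst2 had 0.048 ± 0.54, 0.14 ± 0.37 and -0.075 ± 0.13. B2m had -0.12 ± 1.396 (SD, n = 4) and H2-K1 0.34 ± 0.80.

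**Figure D5:**
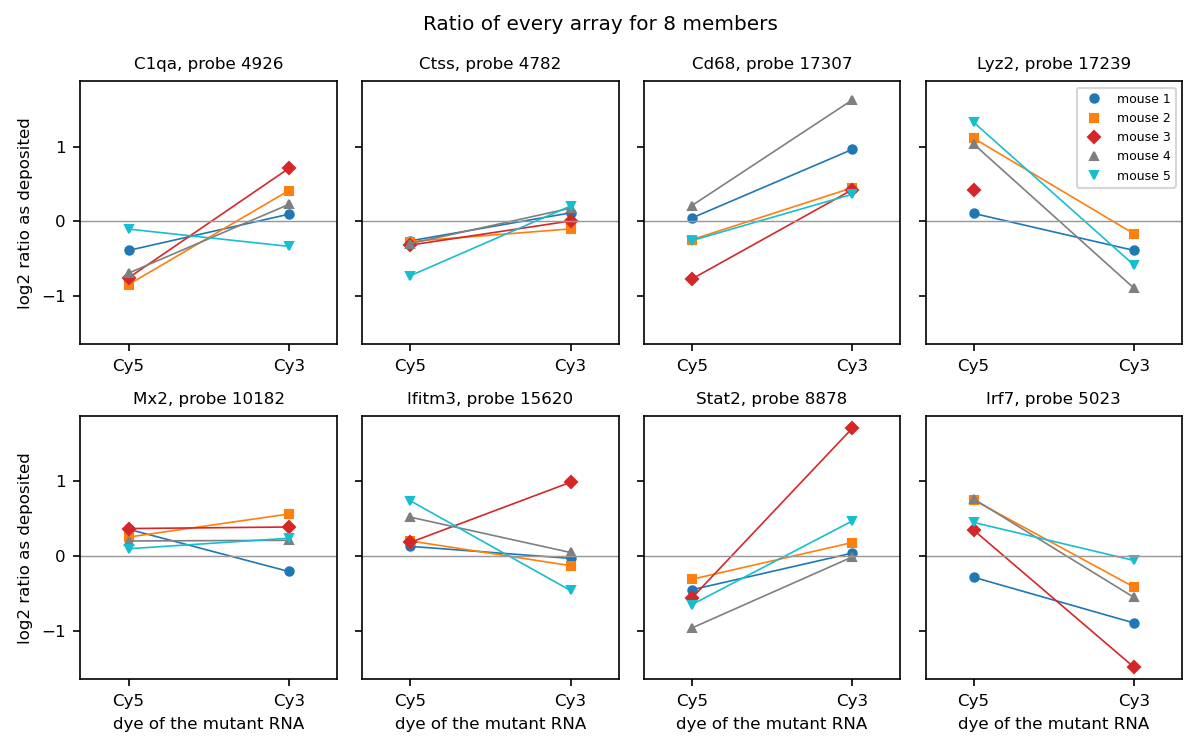
Log2 ratio of every array as deposited for 8 members, with the mutant in Cy5 (left of each panel) and in Cy3 (right); lines join the arrays of a mouse. C1qa, Ctss, Cd68 and Stat2 rise from Cy5 to Cy3 in most mice, Lyz2 and Irf7 fall in each mouse with both values, and Mx2 has means of 0.26 and 0.23.

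Other genes of the same pathways were taken from lists that do not overlap the members. None of their genes passed the test by limma on the pair mean or the dye term. Of 13 other complement genes measured, 10 had a positive mean and 3 a negative one, with a median of 0.13. The dye term turned this to 3 positive and 10 negative, with a median of -0.23, so the division depends on the reading of the swap. Of all genes, 3872 were positive and 4839 negative on the dye term. The smallest p was that of C4a, a chain of complement C4, at 0.18 ± 0.063 (SD, n = 5), positive in all 5 mice. Its mean dye term had the opposite sign, at -0.35. The 25 other microglial genes divided into 14 positive and 11 negative (median 0.027), or 11 and 14 on the dye term (median -0.046), and 2 had an unadjusted p under 0.05, or 8%, against 3.52% of all genes. These were Fcrls, an Fc receptor-like protein of microglia, at 0.32 ± 0.23 (SD, n = 5), and Cd200, a neuronal ligand that restrains microglia, at -0.30 ± 0.22 (SD, n = 5). Their mean dye terms had the opposite signs, at -0.39 for Fcrls and 0.16 for Cd200. The 25 other interferon genes also divided into 14 and 11, around a median of 0.0057, and into 10 and 15 on the dye term, around -0.22. Irf8, a transcription factor that stands in both of these lists, had the smallest p of the interferon list with -0.22 ± 0.19 (SD, n = 5). It was negative in all 5 mice, and its mean dye term was -0.37. Among 11 other antigen presentation genes 9 were positive and 2 negative (median 0.11), and 0 of the 3 members with that role were positive. On the dye term 2 of the 11 were positive and 9 negative (median -0.28), and 1 of the 3 members was positive. Psmb10, a subunit of the immunoproteasome, had -0.55 ± 0.68 (SD, n = 5) and a mean dye term of 0.38.

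Markers of other cells that brain RNA can hold were checked in the same way, and none passed the test. The median pair mean was 0.046 over 9 lymphocyte genes, 0.023 over 8 neutrophil genes and 0.0054 over 2 genes of border macrophages and monocytes. It was 0.030 over 3 red blood cell genes, 0.074 over 5 neuronal genes, -0.056 over 5 astrocyte genes, 0.030 over 4 oligodendrocyte genes and -0.089 over 5 endothelial genes. On the dye term the medians were -0.043 for lymphocytes, -0.23 for neutrophils, -0.14 for border macrophages, 0.028 for red blood cells, 0.19 for neurons, 0.037 for astrocytes, -0.12 for oligodendrocytes and 0.22 for endothelium. Of the neutrophil genes 5 of 8, or 62.5%, had a dye term at an unadjusted p under 0.05, against 26.2% of all genes. Of these 5, 1 was positive and 4 were negative. The share was 50% for oligodendrocytes, 22.2% for lymphocytes and 20% for astrocytes and for endothelium. It was 0% for neurons, red blood cells and border macrophages. In mouse 3 the medians of the pair mean were 0.47 for lymphocytes, 0.17 for neutrophils, 0.088 for border macrophages and -0.84 for endothelium. There they were 0.16 for neurons, 0.001 for astrocytes, 0.030 for oligodendrocytes and -0.18 for red blood cells. Mouse 5 had 0.30 for lymphocytes, 0.37 for neutrophils, 0.14 for border macrophages and -0.22 for endothelium. Its other medians were -0.16 for neurons, -0.13 for astrocytes, -0.073 for oligodendrocytes and -0.14 for red blood cells. The leukocyte medians were thus not high in mouse 3 alone. Ptprc, Fcer1g, Lyz2 and Cd74 are also expressed by blood leukocytes, and the part of such cells in the member values was not tested.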

How the data were processed

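The authors deposited 1 table of ratios for 10 two-colour arrays and 20355 probes, taken here as log2 from the values. The log base, numerator, normalization and turning of swapped arrays are not stated in the labels. Probes were named from the platform annotation: 14030 had 1 symbol, 5 several and 6320 none. Array intensities were not used here, so the signal of a probe over background cannot be given. Precision is limited by there being 10 arrays of 5 mice.

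Each array was centred on its median. For every mouse its 2 arrays were averaged, then the probes of a gene. Probes needed both arrays in at least 4 mice, which left 8711 genes. The 5 means were tested against 0 with limma 3.58.1 in R 4.3.3, with Benjamini-Hochberg adjustment at 0.05. The script was tested on simulated data. At the same threshold it recovered 22.4% of genes changed 1.5-fold, 72.8% of those changed 2-fold and 92% of those changed 3-fold. Most simulated 1.5-fold changes were thus missed. Alternatives were the other reading of the swap, scaling, filters, extreme ratios set to missing, probe choice, a mouse block, an unmoderated test and leaving out each mouse.

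Values in every mouse are given for C1qa, Ctss, Mx2, the C1q chains and up to 4 genes per role with the smallest p. Some others are added where their values were seen to bear on these (Trem2, Ctsd, Ifnar2, Stat2 and Irf9). The members and lists were chosen with earlier results of these data known.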

Additional observations from a re-analysis of the deposited data

Results flagged for a closer look

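Among 60 sets of 5 or 4 mouse values of the members, 2 held a value far from the rest by Dixon's criterion, which chance alone meets in about 1 of 20 sets. The pair mean of Aif1 was -0.536 in mouse 3, with a gap to the next mouse of 0.789 of the whole range. The dye term of Tyrobp was -0.046 in mouse 3, with a gap of 0.744 of the range. Both came from the mouse whose Cy3 array stood apart.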

How the results depend on the processing

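No member passed the threshold of 0.05 in limma under any alternative run. The one-sample test without moderation called 2 genes, against 0, and 0 members. Scaling called 127 genes for the dye term, against 0, and 0 members. With the mouse as a random block on all 10 arrays, 0 genes were called and the within-mouse correlation was -0.224. No pairing between groups was possible because there is 1 group, and no second group shares its replicate numbers. The 2 arrays of a mouse were paired in the pair mean and the dye term. With the mutant in Cy5 alone the microglial median was -0.1192 and the interferon median 0.1805.

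On the other reading of the dye swap 11 of 28 member means changed sign. They became -0.0897 for C1qc, 0.0252 for Aif1, -0.4772 for Cd68, 0.08735 for Ctsd, 0.01098 for Cd74, 0.532 for Ifngr1, 0.3764 for Irf1, -0.5572 for Irf3, 0.5492 for Irf7, -0.0754 for Bst2 and 0.3425 for H2-K1. Scaling turned Fcer1g to 0.002266 and Ifnar2 to 0.004034. The cause was not tested.

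Leaving out each mouse gave 0 to 1 genes with a dye term and a microglial median of -0.07641 to -0.01031. Sign changes numbered 0, 1, 10, 5 and 4 without mice 1 to 5. The ranges of the means were -0.0715 to 0.1627 for Tyrobp, -0.2715 to 0.2212 for Trem2, -0.2075 to 0.09175 for Fcer1g, -0.1714 to 0.009375 for Fcgr3, -0.2666 to 0.01356 for Ptprc, and -0.0105 to 0.09025 for Laptm5. They were -0.752 to 0.04033 for Ifngr1, -0.3428 to 0.2441 for Ifnar2, -0.2176 to 0.04975 for Stat2, -0.3245 to 0.02383 for Irf1 and -0.0665 to 0.3123 for Irf9. They were -0.1466 to 0.2452 for Ifit3, -0.03788 to 0.1044 for Bst2, -0.3785 to 0.139 for H2-K1 and -0.2558 to 0.01 for Tap1.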
